A study of Mus musculus with 28 samples.

Results

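Splenic type 2 conventional dendritic cells (cDC2) and plasmacytoid dendritic cells (pDC) from control mice were compared by bulk RNA sequencing in 16 of the 28 libraries of the series. The members were chosen by their labels: the 8 libraries titled cDC2 WT 1 to 8 were set against the 8 titled pDC WT 1 to 8, with libraries of the same number treated as a pair. Mice of both groups were untreated, aged 6 to 12 weeks, on a C57Bl/6 background and of the genotype Irf8fl/fl, so every animal carried the floxed Irf8 gene and WT here does not mean an unmodified locus. No Cre transgene is named for either group. The cells were sorted by flow cytometry; the cDC2 are labelled as CD172a+ (the protein of Sirpa), and no sort marker is named for the pDC. Of the remaining 12 libraries, 8 are of type 1 conventional dendritic cells (cDC1) from mice of the same genotype, used here for comparison. Another 4 are pDC libraries of mice carrying both Irf8fl/fl and Itgax-cre, in which the CD11c gene promoter drives Cre, and enter only 1 alternative fit. The labels number the mice of each population from 1 to 8 without saying that a number stands for the same animal throughout, and the series' design text speaks of 4 replicates where 8 libraries are labelled. The p-values therefore measure only the spread between these libraries that remains once those of the same number are paired.

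Conventional dendritic cells take up antigen, display it as peptides on MHC molecules and prime T cells. Among them cDC2 are known for MHC class II presentation to CD4+ T cells, for their dependence on Notch2 and lymphotoxin signals in the spleen, and for the transcription factors Irf4, Relb and Zbtb46. Plasmacytoid dendritic cells sense viral nucleic acids in endosomes through Tlr7 and Tlr9, secrete type I interferon through Irf7, carry a large endoplasmic reticulum and share several genes with lymphocytes. Their identity is maintained by Tcf4, an E protein that binds the E-box motif, and its corepressors and partners.

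The libraries held 20696141 to 29351715 reads counted to genes in cDC2 and 17299285 to 30787679 in pDC. Levels below are counts relative to library size, in CPM, scaled by the trimmed mean of M values over the 24 WT libraries, and are given as lowest, median and highest or as mean ± SD over 8 libraries. Each difference is a log2 fold change (log2FC) of cDC2 over pDC, so a negative value means higher in pDC. It comes from edgeR's quasi-likelihood test with the replicate number as a block, with Benjamini-Hochberg adjustment over all 11662 genes tested and a threshold of 0.05. In such bulk data fewer cells of a type and less RNA per cell cannot be told apart. The labelled types matched their defining markers: Siglech, Ly6d and Klk1 were at high levels in every pDC library, while Itgam, Zbtb46 and Clec4a4 were at high levels in every cDC2 library. The cDC1 markers Xcr1 and Itgae were at 5.29 ± 1.80 and 0.217 ± 0.468 CPM in cDC2 and at 1.93 ± 0.953 and 0.213 ± 0.416 CPM in pDC, against 1130.1 ± 125 and 64.3 ± 30.0 CPM in cDC1. Other cDC1 markers were not low: Wdfy4 lay between 305 and 683 CPM in cDC2, and Clec9a between 60.2 and 121 CPM in pDC. Of 17 cDC1 markers tested, 8 were higher in cDC2 and 7 in pDC, against 31.2% and 29.7% of all genes tested. The list summed to 891 to 1173 CPM in cDC2 and 852 to 996 CPM in pDC. Of 15 T and NK cell markers, 14 were under 1 CPM in cDC2 and 12 in pDC, Cd3e among them (0.398 ± 0.405 CPM in cDC2 and 0.353 ± 0.475 CPM in pDC). Their summed level ran from 42.3 to 88.5 CPM in cDC2 and from 70.9 to 126 CPM in pDC, and the 2 that could be tested were Klrk1, higher in cDC2 (60.7 ± 18.7 against 11.5 ± 5.14 CPM), and Cd28, higher in pDC. All 13 red cell and platelet markers were under 1 CPM in both populations. So were 10 of 12 neutrophil markers in cDC2, S100a8 among them (0.343 ± 0.2498 CPM), while Mmp9 (113 ± 36.1 against 0.00659 ± 0.0186 CPM) and Csf3r (22.8 ± 5.65 against 0.554 ± 0.649 CPM) were higher in cDC2. Monocyte and macrophage markers did differ: 15 of 18 tested were higher in cDC2, where 31.2% of all genes tested were, and 3 lower, where 29.7% were. Their summed level ran from 5871 to 8873 CPM in cDC2 and from 2914 to 3939 CPM in pDC. Of the 20 markers listed, only 2 averaged under 1 CPM in cDC2, Mertk and Fn1, while 11 did in pDC. Single cDC2 libraries reached 2.53 CPM for Mertk and 3.10 CPM for Fn1. Xist was at 117 to 188 CPM in odd-numbered and at most 0.120 CPM in even-numbered cDC2 libraries, pDC libraries split by number in the same way, and the Y-linked Ddx3y had the reverse pattern, so each group held libraries of both sexes in equal number.

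To show the regulatory sequence beside the genes with the greatest differences, stretches just upstream of the transcription start were taken from RefSeq promoters on GRCm38.p6, 5′ to 3′ on the gene's strand. The kallikreins Klk1 and Klk1b27 are both high in pDC and near 0 in cDC2, and 43 bases in runs of at least 12 letters are shared by their 200 bases (capitals), at chr7:44225160-44225359 (+ strand) and chr7:44052090-44052289 (+ strand).
Klk1: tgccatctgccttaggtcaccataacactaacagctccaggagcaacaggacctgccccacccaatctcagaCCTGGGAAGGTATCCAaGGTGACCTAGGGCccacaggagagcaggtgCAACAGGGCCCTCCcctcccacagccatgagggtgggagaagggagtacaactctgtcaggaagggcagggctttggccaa
Klk1b27: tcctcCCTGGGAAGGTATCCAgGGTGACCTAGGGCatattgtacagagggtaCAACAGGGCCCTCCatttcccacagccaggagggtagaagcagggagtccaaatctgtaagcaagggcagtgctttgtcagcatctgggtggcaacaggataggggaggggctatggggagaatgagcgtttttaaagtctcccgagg
The pDC genes Siglech at chr7:55767984-55768183 (+ strand) and Ccr9 at chr9:123767011-123767210 (+ strand) are shown for the E-box CANNTG, whose matches are in capitals.
Siglech: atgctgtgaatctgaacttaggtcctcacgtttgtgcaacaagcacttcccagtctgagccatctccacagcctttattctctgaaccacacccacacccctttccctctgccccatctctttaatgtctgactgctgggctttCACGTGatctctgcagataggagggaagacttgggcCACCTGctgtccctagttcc
Ccr9: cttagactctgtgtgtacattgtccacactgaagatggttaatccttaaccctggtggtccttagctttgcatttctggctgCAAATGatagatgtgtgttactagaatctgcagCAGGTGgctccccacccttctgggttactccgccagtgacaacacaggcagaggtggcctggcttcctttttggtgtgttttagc
The cDC2 genes Clec4a1 at chr6:122921648-122921847 (+ strand), Itgam at chr7:128062440-128062639 (+ strand) and Dtx1 at chr5:120711670-120711869 (− strand) are shown for GAGGAAG, a core bound by PU.1 (Spi1), again in capitals on either strand.
Clec4a1: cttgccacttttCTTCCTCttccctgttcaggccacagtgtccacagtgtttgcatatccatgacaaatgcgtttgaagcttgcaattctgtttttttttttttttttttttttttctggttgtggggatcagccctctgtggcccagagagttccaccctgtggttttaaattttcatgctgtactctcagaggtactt
Itgam: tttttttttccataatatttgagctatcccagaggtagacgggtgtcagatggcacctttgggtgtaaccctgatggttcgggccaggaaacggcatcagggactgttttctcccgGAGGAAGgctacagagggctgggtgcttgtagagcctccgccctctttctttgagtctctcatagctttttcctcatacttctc
Dtx1: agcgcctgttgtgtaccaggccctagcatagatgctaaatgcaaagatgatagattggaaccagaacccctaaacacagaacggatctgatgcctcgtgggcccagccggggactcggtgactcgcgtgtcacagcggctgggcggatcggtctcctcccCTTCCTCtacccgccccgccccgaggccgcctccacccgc
These genes were picked because they hold the motifs, so the sequences illustrate and do not test. Symbols of 9380 of the 11662 genes tested (80.4%) were matched to 11880 promoters, and each motif was searched on both strands of the 250 bases before the start. The E-box form CACCTG, which is also counted in CANNTG, was in 14.9% of all promoters, in 23.9% of those of genes at least 16-fold higher in pDC and in 16.3% of those at least 16-fold higher in cDC2. For CAGCTG, another form within CANNTG, the shares were 11.3%, 19.1% and 14.2% in the same order. The general form CANNTG was in 57.0%, 67.9% and 63.2%. GAGGAAG was in 11.04%, 13.2% and 14.2%. A match describes the letters of the window and is not evidence of binding.

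The 2 cell types differed in most of the genes they expressed, with 7109 of those tested (61.0%) past the threshold in either direction. 3643 genes were higher in cDC2 (31.2% of those tested) and 3466 were higher in pDC (29.7%). With a difference of at least 2-fold required as well, 1936 genes (16.6%) were higher in cDC2 and 1642 (14.1%) in pDC. These shares are the background for every gene list below, and the median log2FC over all genes tested was 0.01. The split between directions depended on scaling: with total counts alone 2939 genes were higher and 4338 lower in cDC2, since that scaling moved the median log2FC of the genes by -0.17. Large differences leaned toward cDC2, with 724 genes at least 16-fold higher there against 414 in pDC, and 323 against 206 at 100-fold or more. The levels in all 16 libraries did not overlap between groups for 3785 genes (32.5%).

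**Figure D1:**
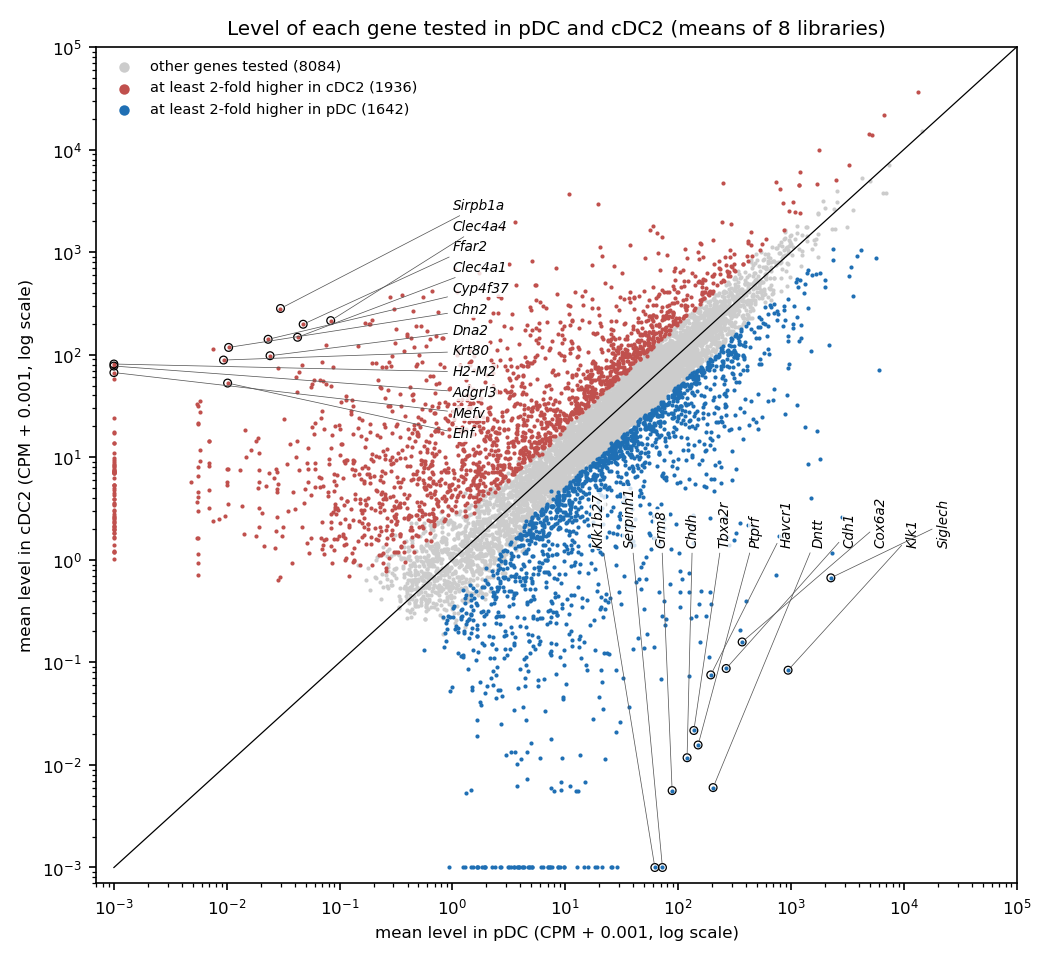
Mean level of each gene tested in pDC (horizontal axis, CPM, log scale) and in cDC2 (vertical axis, CPM, log scale), 8 libraries each, with 0.001 CPM added so that genes at 0 can be drawn. Coloured points passed the adjusted p threshold with at least 2-fold difference: 1936 lie above the diagonal and 1642 below it. The labelled genes are the 12 furthest in each direction by fitted log2FC among genes with at least 50 CPM and no overlap. Predicted genes, antigen receptor segments and markers of other cells were left out of the labelling.

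Some genes were read in 1 population and close to absent from the other. By the rule of at least 10 CPM on average in 1 population and under 0.1 CPM in the other, 65 genes belonged to cDC2, 10 of them without a single read in the 8 pDC libraries. In the opposite direction there were 40 genes, 11 of them without a read in cDC2. In cDC1, 21 of the cDC2 genes reached 10 CPM as well, whereas none of the pDC genes did and 30 of them were under 0.1 CPM there. This difference in number was not tested. Examples on the cDC2 side, chosen after their values were seen, were the interleukin-1 receptor antagonist Il1rn (76.1 ± 17.2 against 0.0862 ± 0.171 CPM), the peptidoglycan-binding protein gene Pglyrp1 (84.0 ± 13.9 against 0.0686 ± 0.123) and the succinate receptor Sucnr1 (31.8 ± 5.95 against 0.00459 ± 0.0130). On the pDC side stood the ephrin receptor Epha2 (125 ± 36.7 against 0.0718 ± 0.106 CPM) and Bhlha15, which encodes MIST1, a factor of secretory cells (30.4 ± 15.5 against 0.0250 ± 0.0359 CPM).

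Among the genes furthest toward pDC was Dntt, which encodes the terminal deoxynucleotidyl transferase that adds untemplated bases during lymphocyte receptor rearrangement. It lay between 154 and 270.2 CPM (median 206) in pDC, while the 8 cDC2 libraries held 1 read of it in all. Serpinh1, a collagen chaperone of the endoplasmic reticulum, lay between 40.7 and 127 CPM (median 65.1) in pDC and had no read in cDC2, so it was at least 4709-fold higher in pDC, taking 3 counts over the 8 cDC2 libraries as the floor. Klk1b27 also had no read in cDC2 and was between 43.7 and 80.3 CPM (median 63.7) in pDC, at least 4033-fold higher. None of these genes overlapped between groups, which the rule that picked them required. Klk1 was at 943 ± 193 CPM in pDC and 0.0829 ± 0.0859 CPM in cDC2 (log2FC -13.42, SE 0.22, adjusted p = 4.75e-13), and reads of such close paralogs may be split between family members. Others were the metabotropic glutamate receptor Grm8 (88.5 ± 17.6 against 0.00462 ± 0.0131 CPM), the mitochondrial choline dehydrogenase Chdh (120.1 ± 28.3 against 0.0108 ± 0.0200), the receptor phosphatase Ptprf (150.3 ± 30.0 against 0.0146 ± 0.0295) and the thromboxane A2 receptor Tbxa2r (138 ± 24.4 against 0.0207 ± 0.0222). The cytochrome oxidase subunit Cox6a2 was at 369 ± 81.5 against 0.157 ± 0.149 CPM, E-cadherin, the product of Cdh1, at 267 ± 66.9 against 0.0862 ± 0.114 CPM, and Havcr1, which encodes the phosphatidylserine receptor TIM-1, at 195 ± 21.9 against 0.0744 ± 0.146 CPM. Among genes with at least 50 CPM and no overlap, the 12 furthest toward pDC by fitted log2FC, Siglech among them, included enzymes, adhesion molecules and receptors of several families. Predicted genes, antigen receptor segments and markers of other cells were left out of this ranking.

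Of the 12 genes furthest toward cDC2 by fitted log2FC under the same limits, 3 had no read in pDC. For these only a bound on the fold can be given, and their order is not known. One was H2-M2, a nonclassical MHC class I gene, which lay between 49.6 and 108 CPM (median 78.8) in cDC2 and had no read in pDC, a difference of at least 5665-fold. Adgrl3, an adhesion G protein-coupled receptor, lay between 54.4 and 104 CPM (median 80.4) in cDC2 and also had no read in pDC, at least 5414-fold below cDC2. Mefv, which encodes the inflammasome sensor pyrin, lay between 58.9 and 84.9 CPM (median 64.5) in cDC2, again without a read in pDC and at least 4678-fold higher in cDC2. Every cDC2 library was above every pDC library for all 3, as the limits for this ranking required. Sirpb1a, an activating relative of Sirpa, was at 282 ± 23.7 against 0.0289 ± 0.0515 CPM in pDC, with the same reservation on paralogs. The Rac GTPase activator Chn2 (118 ± 17.6 against 0.00939 ± 0.0174 CPM), the keratin gene Krt80 (88.6 ± 7.52 against 0.00836 ± 0.0156), the cytochrome P450 gene Cyp4f37 (141 ± 18.7 against 0.0223 ± 0.0186) and the short-chain fatty acid receptor Ffar2 (198 ± 22.0 against 0.0465 ± 0.0837) followed. So did the ETS factor Ehf (52.9 ± 10.6 against 0.00918 ± 0.0260 CPM), the replication nuclease Dna2 (97.7 ± 11.5 against 0.0232 ± 0.0341) and the lectins Clec4a1 (148 ± 15.3 against 0.0414 ± 0.0629) and Clec4a4 (215 ± 17.4 against 0.0824 ± 0.147).

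The listed pDC markers all differed in their usual direction. Of 30 tested, 30 were higher in pDC (29 by at least 2-fold), with a median log2FC of -8.31. This list, like the others, was written with earlier results of these data known, so the count describes and does not test. Siglech, a sialic acid-binding lectin that marks these cells, lay between 1891 and 2709.6 CPM (median 2216) in pDC and between 0.0347 and 2.15 CPM (median 0.330) in cDC2 (log2FC -11.77, SE 0.45, adjusted p = 8.93e-09). Bst2, the antigen PDCA-1 that tethers budding virus, lay between 962 and 1530.0 CPM (median 1078) in pDC and between 22.8 and 36.4 CPM (median 33.2) in cDC2 (log2FC -5.13, SE 0.09, adjusted p = 4.75e-13). Ccr9, a chemokine receptor for gut and thymus homing, lay between 1232 and 1672 CPM (median 1452) in pDC and between 3.14 and 18.3 CPM (median 7.35) in cDC2 (log2FC -7.50, SE 0.35, adjusted p = 3.87e-08). In none of them did the groups overlap. Not every marker separated the cells cleanly: the nuclease Pld4 was at 2352 ± 385 CPM in pDC and 839 ± 81.7 CPM in cDC2 (log2FC -1.47, SE 0.06, adjusted p = 3.05e-10). Plac8 was at 1998 ± 389 and 531 ± 88.3 CPM (log2FC -1.90) and the collagen receptor Lair1 at 1037 ± 81.1 and 199 ± 14.7 CPM (log2FC -2.37) in the same order. Cd7 differed least of these, at 535 ± 71.7 and 409.6 ± 63.4 CPM (log2FC -0.38, SE 0.06, adjusted p = 6.89e-05). Such genes were higher in pDC yet far from absent in cDC2. Ly6c2 (2331 ± 219 against 1.15 ± 0.566 CPM) and Cd8b1 (738 ± 95.1 against 0.714 ± 0.639) were of the clean kind.

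Of cDC2 markers, 25 of 29 tested were higher in cDC2 and 2 higher in pDC, with a median log2FC of 4.43. Sirpa, which encodes the sorted surface protein CD172a and the receptor for CD47, lay between 1063 and 1309 CPM (median 1238) in cDC2 and between 342 and 534 CPM (median 418) in pDC (log2FC 1.56, SE 0.07, adjusted p = 1.05e-09). Its groups did not overlap, yet pDC also carried a clear level, unlike cDC1 at 3.95 ± 2.94 CPM. Itgax, which encodes CD11c, lay between 659 and 1026 CPM (median 854) in cDC2 and between 104.9 and 227 CPM (median 146) in pDC (log2FC 2.52, SE 0.11, adjusted p = 7.90e-10). Itgam, which encodes CD11b, was at 153 ± 23.6 CPM in cDC2 and 0.395 ± 0.655 CPM in pDC (log2FC 8.76, SE 0.59, adjusted p = 6.72e-07), though 68.7% of its exonic bases overlap another annotated gene and the sources used here do not say whether counting used strand. Tmem176a (741 ± 112 against 17.3 ± 4.03 CPM) and Tmem176b (1178 ± 127 against 37.7 ± 8.51 CPM), paired ion channel genes, were also higher in cDC2. So were the Notch-regulated adhesion gene Esam (100.4 ± 16.6 against 5.64 ± 4.46 CPM) and the calcium-binding S100a4 (344 ± 47.5 against 5.54 ± 2.99 CPM), 51.7% of which overlaps another gene. The exceptions were Cd4, at 249 ± 30.8 CPM in cDC2 and 763 ± 156 CPM in pDC (log2FC -1.59, SE 0.07, adjusted p = 4.83e-10), and the uric acid sensing lectin Clec12a, at 82.0 ± 33.8 and 526 ± 78.8 CPM (log2FC -2.75, SE 0.17, adjusted p = 1.29e-07). Cd209a, a mouse DC-SIGN gene, and the galactose lectin Mgl2 did not pass the test, at 804 ± 139 and 767 ± 193 CPM (log2FC 0.10, SE 0.11, adjusted p = 0.477) and at 12.1 ± 3.77 and 10.7 ± 2.83 CPM (log2FC 0.16, SE 0.19, adjusted p = 0.496). Lyz2 (1728 ± 491 against 2.76 ± 1.56 CPM), Adgre1 (365 ± 30.7 against 0.550 ± 0.5000), Csf1r (479 ± 78.3 against 3.69 ± 4.15) and C1qa (25.03 ± 7.41 against 0.375 ± 0.314), which macrophages express strongly, were higher in the same libraries. Their part in the cDC2 results was not tested.

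**Figure D2:**
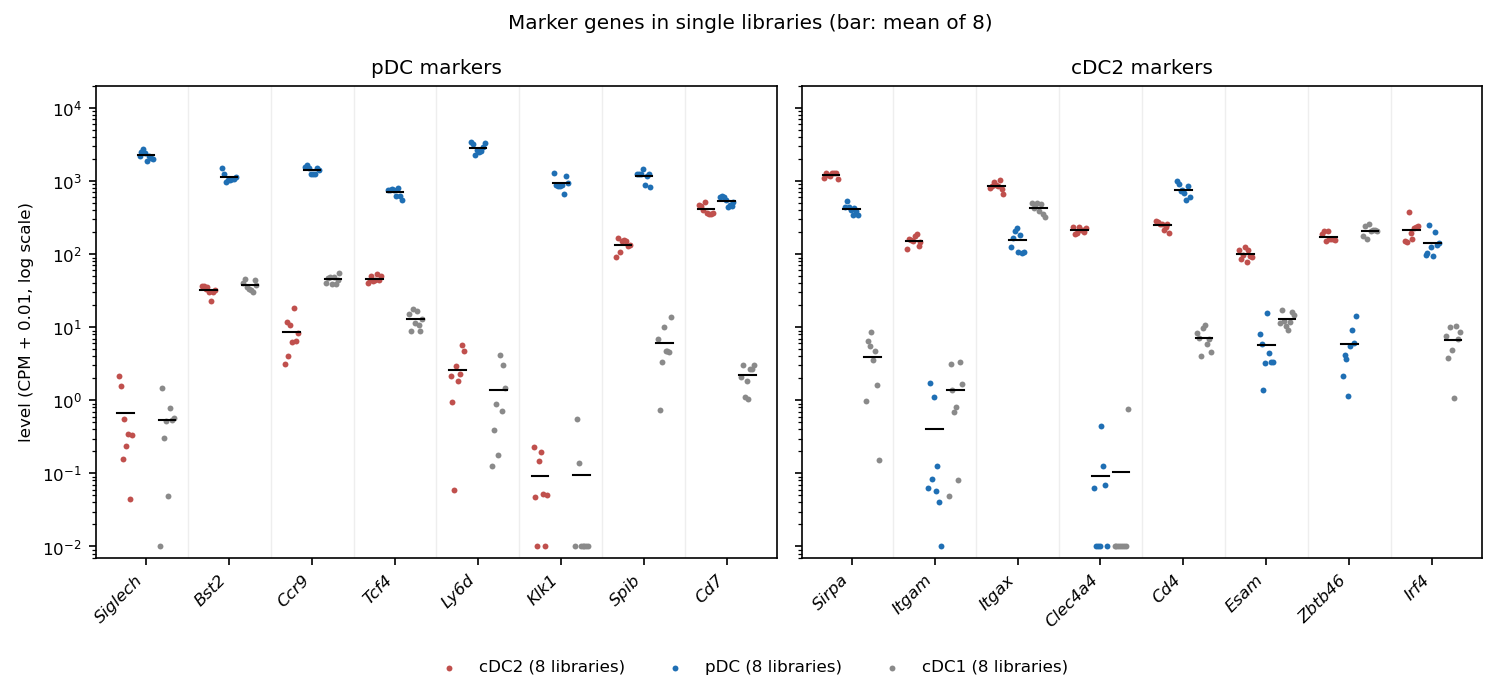
Levels of 8 pDC markers (left) and 8 cDC2 markers (right) in single libraries (CPM, log scale, 0.01 CPM added), with cDC2, pDC and cDC1 in separate colours and 8 points per population, and a bar at the mean. Siglech, Bst2, Ccr9, Tcf4, Ly6d, Klk1 and Spib are higher in every pDC library than in any cDC2 or cDC1 library, Cd7 is nearly level in cDC2 and pDC, and Sirpa and Cd4 are also read in pDC, with Cd4 higher there than in cDC2.

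Genes shared by conventional dendritic cells were mostly higher in cDC2, 15 of 20 against 4 higher in pDC (median log2FC 2.93). Kit, the stem cell factor receptor, was at 627 ± 59.2 against 31.7 ± 7.89 CPM (log2FC 4.35, SE 0.15, adjusted p = 3.47e-10). Ccr7, which guides cells to lymph node T zones, lay between 1113 and 2441 CPM (median 1569) in cDC2 and between 46.7 and 72.3 CPM (median 54.0) in pDC (log2FC 4.85, SE 0.10, adjusted p = 1.08e-12). Flt3, the receptor for the growth factor on which all dendritic cells depend, was nearly level at 335 ± 42.3 and 271 ± 32.8 CPM (log2FC 0.31, SE 0.06, adjusted p = 4.58e-04). The GM-CSF receptor chains went separate ways: Csf2ra was higher in cDC2 (160.4 ± 22.1 against 25.5 ± 3.95 CPM) and Csf2rb did not pass (257 ± 17.3 and 289.7 ± 65.4 CPM, log2FC -0.14, SE 0.08, adjusted p = 0.172). With upper-quartile scaling (log2FC -0.20), with total counts alone (log2FC -0.30) and in replicates 1 to 4 (log2FC -0.34) Csf2rb passed, higher in pDC. The close paralog Csf2rb2 was higher in pDC (326 ± 54.1 against 54.0 ± 12.7 CPM). Also higher in pDC were Cd24a (log2FC -1.49), Haao (log2FC -0.62) and Adam19 (log2FC -0.23). Without the replicate block the call for Adam19 was lost (log2FC -0.22, adjusted p = 0.143 with edgeR), as it was in replicates 1 to 4, 5 to 8 and the odd-numbered ones.

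The transcription factors followed the identity of each cell, with Irf8 at the head. Irf8, which specifies cDC1 and is required for normal pDC function, lay between 48.5 and 85.4 CPM (median 73.8) in cDC2 and between 5308 and 6421 CPM (median 6195) in pDC (log2FC -6.42, SE 0.13, adjusted p = 4.13e-12). The lowest pDC library exceeded the highest cDC2 library many times over, and cDC1 lay between 3639 and 4148 CPM (median 3980.5). Of 20 factors listed for pDC, 18 were higher in pDC and 1 in cDC2 (median log2FC -1.93). Tcf4 lay between 551 and 800.2 CPM (median 750.1) in pDC and between 40.7 and 53.9 CPM (median 44.5) in cDC2 (log2FC -3.92, SE 0.08, adjusted p = 1.32e-12). Runx2, which controls pDC exit from bone marrow, lay between 351 and 532 CPM (median 425) in pDC and between 13.3 and 24.96 CPM (median 20.5) in cDC2 (log2FC -4.39, SE 0.11, adjusted p = 4.05e-12). Neither overlapped. The ETS factor Spib was at 1168 ± 207 CPM in pDC, 135 ± 25.4 CPM in cDC2 and 6.08 ± 4.09 CPM in cDC1 (log2FC -3.11 for cDC2 over pDC). Tsc22d1 (924 ± 67.2 against 40.5 ± 9.47 CPM), Ets1 (255 ± 25.9 against 20.2 ± 7.73), Tcf12 (78.9 ± 13.3 against 13.0 ± 3.89) and the secretory factor Xbp1 (894 ± 108 against 219 ± 22.5) had the same direction. Smaller differences toward pDC were measured for Bcl11a (log2FC -0.72), Zeb2 (log2FC -0.96) and Mycl (log2FC -0.89). The corepressor Cbfa2t3, a known partner of E proteins, was higher in cDC2 at 203 ± 33.4 against 96.9 ± 22.9 CPM (log2FC 1.09, SE 0.09, adjusted p = 3.53e-07), and Ikzf1 did not pass at 203 ± 35.7 and 207 ± 32.6 CPM (log2FC -0.03, SE 0.07, adjusted p = 0.731).

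Of 25 factors listed for cDC2, 22 were higher in cDC2 and 1 in pDC (median log2FC 2.30). Id2, the inhibitor that binds E proteins and keeps them from DNA, lay between 266 and 389 CPM (median 326) in cDC2 and between 4.59 and 7.51 CPM (median 5.84) in pDC (log2FC 5.79, SE 0.10, adjusted p = 3.94e-13). Zbtb46, a repressor that marks conventional dendritic cells within the immune system, lay between 151 and 206 CPM (median 162) in cDC2 and between 1.15 and 14.4 CPM (median 4.88) in pDC (log2FC 5.13, SE 0.43, adjusted p = 3.48e-06). Spi1, which encodes PU.1, lay between 633 and 773 CPM (median 694) in cDC2 and between 80.1 and 109.8 CPM (median 93.4) in pDC (log2FC 2.91, SE 0.07, adjusted p = 3.98e-12). No pDC library reached the lowest cDC2 library for these factors. Irf4, by contrast, differed little: it lay between 145 and 381 CPM (median 211) in cDC2 and between 94.6 and 248 CPM (median 131) in pDC (log2FC 0.63, SE 0.07, adjusted p = 4.50e-06), against 6.65 ± 3.25 CPM in cDC1. Its groups overlapped, yet cDC2 was the higher library in 8 of 8 pairs. The NF-kappaB subunits Relb (672 ± 60.9 against 69.4 ± 9.68 CPM) and Rel (249 ± 43.8 against 50.6 ± 7.69), the repressor Bcl6 (161 ± 31.2 against 17.5 ± 3.62) and the T-box factor Tbx21 (56.3 ± 18.7 against 0.0580 ± 0.117) were higher in cDC2. Batf3, needed for cDC1, was at 51.7 ± 3.57 CPM in cDC2, 0.0741 ± 0.1095 CPM in pDC and 99.2 ± 10.3 CPM in cDC1. Batf was higher in pDC (log2FC -0.56, adjusted p = 0.00562), and Klf2 (1516 ± 263 and 1726 ± 403 CPM, log2FC -0.16, adjusted p = 0.210) and Cebpa (30.9 ± 8.02 and 30.4 ± 8.83 CPM, log2FC 0.04, adjusted p = 0.865) did not pass. Without pair 3 Klf2 passed, higher in pDC (log2FC -0.25), as it did with total counts alone (log2FC -0.33). The call for Batf was lost in replicates 1 to 4 (log2FC -0.31) and in odd-numbered replicates (log2FC -0.41).

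**Figure D3:**
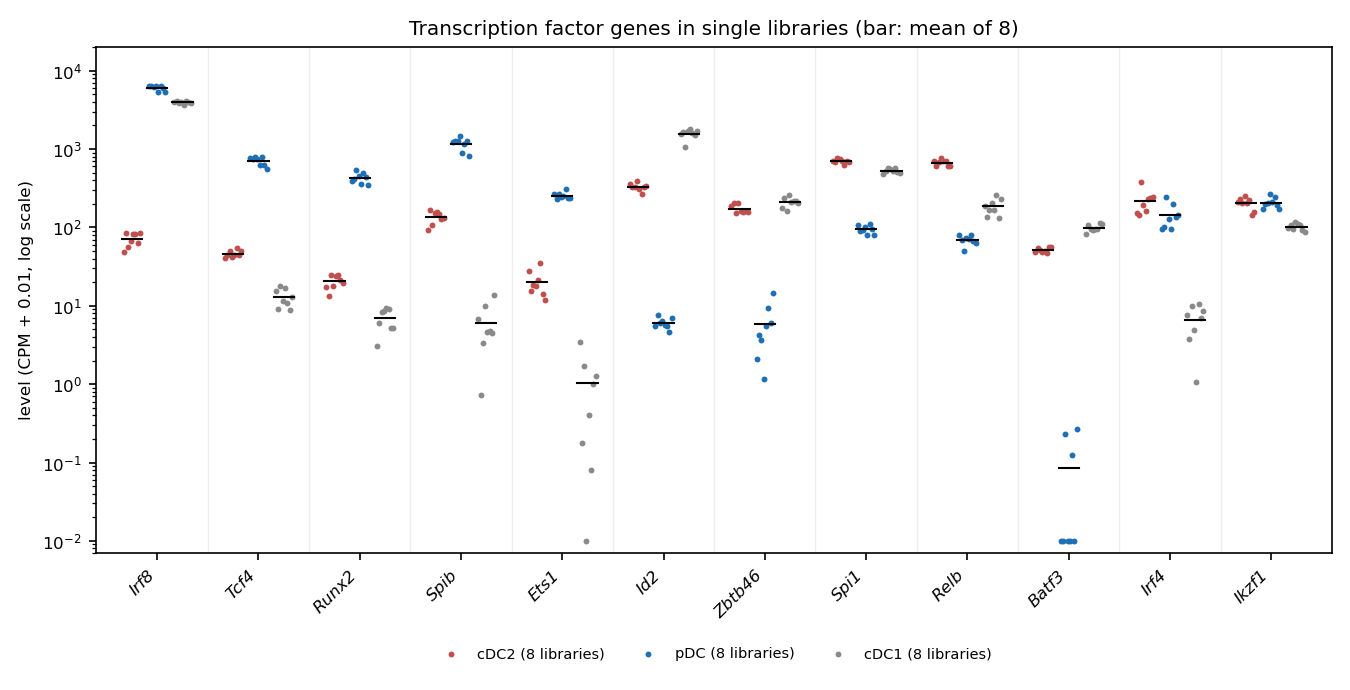
Levels of 12 transcription factors in single libraries (CPM, log scale, 0.01 CPM added), 8 points per population and a bar at the mean. Irf8, Tcf4, Runx2, Spib and Ets1 are higher in pDC than in cDC2, Id2, Zbtb46, Spi1, Relb and Batf3 are higher in cDC2, and the cDC2 and pDC libraries overlap for Irf4 and Ikzf1.

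Receptors for nucleic acids in endosomes divided between the cells by receptor. Tlr7, a sensor of single-stranded RNA, lay between 280.1 and 472 CPM (median 387) in pDC and between 95.6 and 151 CPM (median 119.9) in cDC2 (log2FC -1.58, SE 0.09, adjusted p = 6.40e-09), without overlap, and was close to absent from cDC1 at 0.0106 ± 0.0197 CPM. Tlr9, the sensor of unmethylated DNA, was low in both, between 6.86 and 11.9 CPM (median 8.53) in pDC and between 1.44 and 7.22 CPM (median 4.19) in cDC2 (log2FC -1.19, SE 0.31, adjusted p = 0.00475). Its call was lost in odd-numbered replicates (log2FC -0.59) and in replicates 1 to 4 (log2FC -0.99). Tlr12, which senses profilin, was at 208 ± 104.5 CPM in pDC, 4.67 ± 2.61 CPM in cDC2 and 202 ± 73.7 CPM in cDC1. The other receptors were higher in cDC2 than in pDC. Tlr13, a sensor of bacterial ribosomal RNA, lay between 192 and 243 CPM (median 211) in cDC2 and between 0 and 1.28 CPM (median 0.0376) in pDC (log2FC 10.19, SE 0.58, adjusted p = 1.84e-07). Tlr11 was at 37.6 ± 6.44 against 0.252 ± 0.713 CPM, Tlr3 at 6.58 ± 2.05 against 0.201 ± 0.367 CPM, and Tlr8 at 7.35 ± 1.58 CPM with no read in pDC, at least 513-fold higher. Except for Tlr8, these were not particular to cDC2. In cDC1, Tlr13 lay between 153 and 224 CPM, Tlr11 between 367 and 567 CPM and Tlr3 between 278 and 411 CPM. Over the whole list of endosomal receptors and interferon induction, 13 of 28 (46.4%) were higher and 10 (35.7%) lower in cDC2. The shares of all genes tested were 31.2% and 29.7%. The median log2FC of the list was 0.07, or -0.10 when scaled to total counts alone. Irf7, the master factor of type I interferon genes, lay between 466 and 740.4 CPM (median 641) in pDC and between 124 and 178 CPM (median 150.3) in cDC2 (log2FC -2.02, SE 0.07, adjusted p = 7.53e-11), and the gene of the adaptor TASL, listed as 5430427O19Rik, was at 249 ± 57.2 against 62.5 ± 10.0 CPM (log2FC -1.96). The transporter Slc15a4, to which TASL binds, was at 306 ± 46.0 and 240.5 ± 46.3 CPM (log2FC -0.35), and the chaperone Unc93b1 at 1649 ± 218 and 1210.3 ± 94.2 CPM (log2FC -0.43), both slightly higher in pDC. The shared signalling genes Myd88 (log2FC 0.42) and Irak4 (log2FC 1.32) were higher in cDC2, while Irf3 (log2FC 0.02, adjusted p = 0.879) and Traf6 (log2FC 0.01, adjusted p = 0.960) did not pass. The kinase gene Ikbke was at 4.25 ± 2.27 CPM in pDC with no read in cDC2, at least 275-fold higher.

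**Figure D4:**
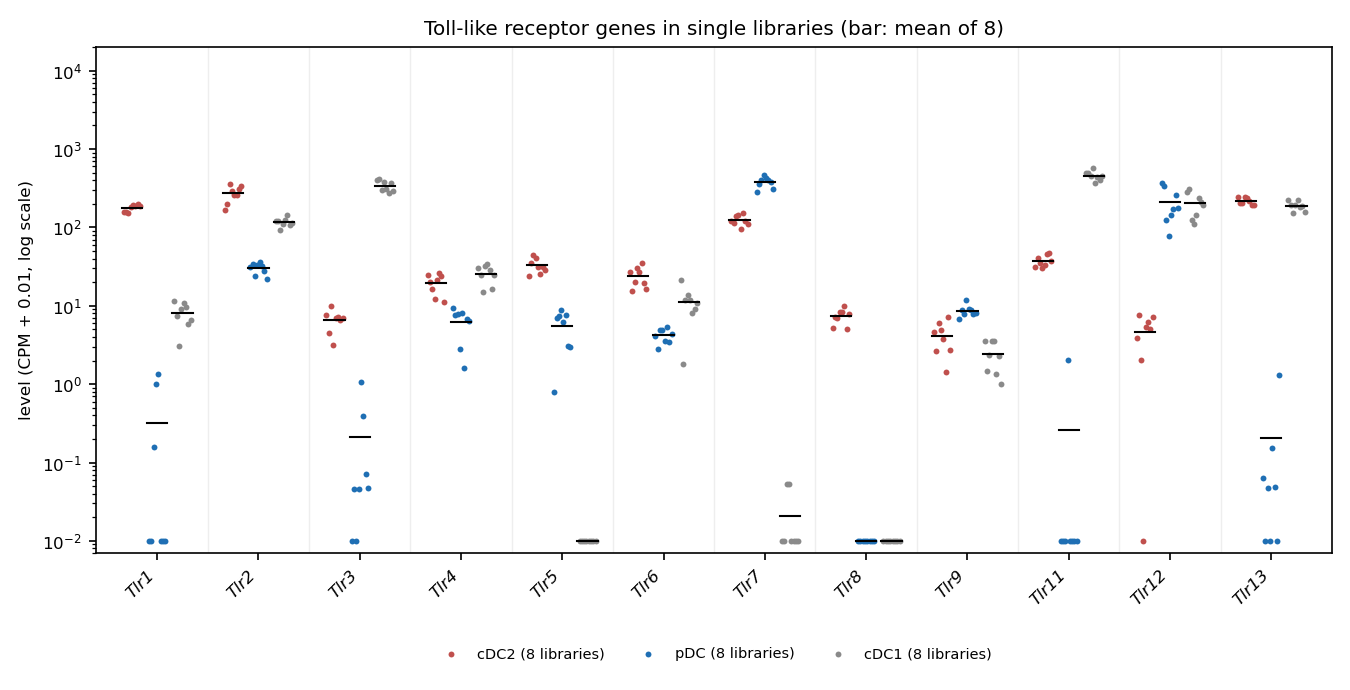
Levels of 12 Toll-like receptor genes in single libraries (CPM, log scale, 0.01 CPM added), 8 points per population and a bar at the mean. Tlr7, Tlr9 and Tlr12 are higher in pDC than in cDC2, and the other 9 are higher in cDC2, with Tlr8 read in no pDC library.

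Surface Toll-like receptors leaned to cDC2, 8 of 13 higher and 3 lower (median log2FC 1.72). Tlr1, the lipopeptide receptor that pairs with Tlr2, lay between 155 and 201 CPM (median 185) in cDC2 and between 0 and 1.34 CPM (median 0) in pDC (log2FC 9.38, SE 0.62, adjusted p = 5.73e-07). Tlr2 lay between 165 and 353 CPM (median 277) in cDC2 and between 21.8 and 36.0 CPM (median 31.6) in pDC (log2FC 3.16, SE 0.19, adjusted p = 1.24e-07). Both separated the groups fully. The flagellin receptor Tlr5 was at 32.7 ± 7.14 against 5.47 ± 2.82 CPM and had no read in cDC1, and Tlr6 was at 23.7 ± 6.91 against 4.19 ± 0.891 CPM. The lipopolysaccharide receptor Tlr4 was at 19.5 ± 5.73 against 6.27 ± 2.70 CPM (log2FC 1.72, SE 0.30, adjusted p = 3.07e-04). Higher in pDC were the B cell-type receptor Cd180 (138 ± 27.6 against 52.9 ± 5.85 CPM), its partner Ly86 (552 ± 41.4 against 357 ± 27.1 CPM) and the scavenger receptor Cd36 (43.7 ± 36.8 against 7.88 ± 4.72 CPM).

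Cytosolic sensors and inflammasome genes were higher in cDC2 in 19 of 24 cases and lower in 3 (median log2FC 1.40). Ddx58, which encodes the RNA sensor RIG-I, lay between 51.6 and 111 CPM (median 71.8) in cDC2 and between 1.06 and 5.61 CPM (median 3.14) in pDC (log2FC 4.67, SE 0.32, adjusted p = 2.78e-07). Nod1, a sensor of bacterial peptidoglycan, lay between 148 and 224 CPM (median 197) in cDC2 and between 3.17 and 20.3 CPM (median 9.60) in pDC (log2FC 4.49, SE 0.27, adjusted p = 2.20e-07). Nlrp3, which nucleates an inflammasome, lay between 47.8 and 79.1 CPM (median 63.5) in cDC2 and between 1.39 and 7.81 CPM (median 3.49) in pDC (log2FC 4.23, SE 0.27, adjusted p = 4.71e-08). The lowest cDC2 library stood above the highest pDC library in each. The cytokine gene Il1b, whose product inflammasomes process, reached 3674 ± 1034 CPM in cDC2 against 10.7 ± 10.3 CPM in pDC, and Il18 22.7 ± 3.69 against 1.73 ± 0.839 CPM. Adaptors on which several sensors converge were slightly higher in pDC, namely Mavs (log2FC -0.56), Tmem173, which encodes STING (log2FC -0.33), and Pycard, which encodes ASC (log2FC -0.59). The calls for Mavs and Tmem173 were lost in replicates 5 to 8, and that for Mavs also in even-numbered replicates (log2FC -0.25).

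Interferon-stimulated genes showed no single direction, with 16 of 26 (61.5%) higher and 8 (30.8%) lower in cDC2 (median log2FC 0.85). The shares of all genes tested were 31.2% and 29.7%. Ifitm3, a membrane protein that blocks viral fusion, lay between 421 and 625 CPM (median 503) in cDC2 and between 14.4 and 35.5 CPM (median 20.9) in pDC (log2FC 4.53, SE 0.14, adjusted p = 5.23e-11). Oas1a (95.7 ± 25.6 against 12.7 ± 5.44 CPM) and Oas3 (50.8 ± 8.65 against 7.22 ± 2.30 CPM), which make the activator of RNase L, and Rtp4 (96.9 ± 14.7 against 1.54 ± 1.12 CPM) were also higher in cDC2. Ifi44 (91.6 ± 25.2 against 6.68 ± 3.73 CPM) and Trim30a (310.3 ± 37.5 against 122 ± 10.4 CPM) were higher in pDC, as was the signal transducer Stat2 (130.0 ± 36.1 against 49.4 ± 11.9 CPM). Both chains of the type I interferon receptor were higher in pDC, Ifnar1 at 230.0 ± 33.2 against 97.8 ± 9.03 CPM and Ifnar2 at 443 ± 39.6 against 179.9 ± 18.1 CPM. Both chains of the interferon-gamma receptor were higher in cDC2, Ifngr1 at 979 ± 45.6 against 66.0 ± 10.7 CPM (log2FC 3.92, SE 0.08, adjusted p = 7.95e-13) and Ifngr2 at 307 ± 28.5 against 115 ± 12.1 CPM.

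Antigen presentation on MHC class II was higher in cDC2 in 16 of 17 genes (median log2FC 1.44), and the summed level of the list ran from 81870 to 94178 CPM in cDC2 and from 27746 to 34482 CPM in pDC. H2-Ab1, the beta chain of I-A, lay between 20300.2 and 23699.6 CPM (median 21459) in cDC2 and between 5754 and 7731 CPM (median 6619) in pDC (log2FC 1.70, SE 0.05, adjusted p = 3.20e-11). H2-Eb1, the beta chain of I-E, lay between 9349.6 and 10463 CPM (median 10163) in cDC2 and between 1479 and 1938 CPM (median 1799) in pDC (log2FC 2.52, SE 0.06, adjusted p = 1.94e-12). H2-Ob, part of the inhibitor of peptide exchange H2-O, lay between 331 and 447 CPM (median 418) in cDC2 and between 31.3 and 47.3 CPM (median 37.6) in pDC (log2FC 3.45, SE 0.08, adjusted p = 3.18e-12). In spite of the difference, pDC transcripts of this pathway were abundant: per kilobase of exon the invariant chain gene Cd74 stood at 21504 CPM in cDC2 and 7995 CPM in pDC, rank 1 among nuclear genes in both. The transactivator Ciita was at 410.2 ± 63.0 against 75.3 ± 13.9 CPM. The proteases that trim the invariant chain parted: Ctss was slightly higher in cDC2 (1769.5 ± 124 and 1348 ± 81.5 CPM, log2FC 0.40). Ctsl, the only gene of the list higher in pDC, lay between 1638 and 2007 CPM (median 1813) in pDC and between 5.81 and 12.4 CPM (median 10.2) in cDC2 (log2FC -7.57, SE 0.13, adjusted p = 4.75e-13).

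MHC class I presentation mostly differed little and more often in the other direction. Of 20 genes, 4 were higher in cDC2 and 11 higher in pDC, with a median log2FC of -0.31. With at least 2-fold required, 2 were higher in cDC2 and 1 in pDC, so the lean toward pDC lay in the smaller differences. H2-K1 was at 3531 ± 683 CPM in pDC and 2546 ± 201 CPM in cDC2 (log2FC -0.44, SE 0.06, adjusted p = 5.64e-05), and B2m at 5004 ± 453 and 4957 ± 306 CPM (log2FC -0.0018, SE 0.04, adjusted p = 0.973), which did not pass. The peptide editors Tapbp (1719 ± 238 against 887 ± 67.5 CPM) and Tapbpl (113 ± 18.2 against 58.0 ± 9.60 CPM) were higher in pDC. The 4 genes higher in cDC2 were Wdfy4 (468 ± 107 against 89.9 ± 17.7 CPM) and Rab43 (372 ± 45.3 against 66.8 ± 15.99 CPM), both tied to cross-presentation in cDC1, with Erap1 (log2FC 0.50) and Cyba (log2FC 0.34). The call for Cyba was lost with total counts alone (log2FC 0.17). Of Rab43, 75.4% of the exonic bases overlap another gene. When only differences beyond 1.5-fold were tested, 3 of the genes stayed higher in pDC.

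Costimulatory and coinhibitory molecules were mostly higher in cDC2, 13 of 21 tested against 5 higher in pDC (median log2FC 1.99). Cd86, a CD28 ligand, lay between 104 and 132 CPM (median 116) in cDC2 and between 3.67 and 9.34 CPM (median 6.14) in pDC (log2FC 4.33, SE 0.16, adjusted p = 1.76e-10). Cd83 reached 2961 ± 665 against 19.6 ± 5.11 CPM, Cd40 137 ± 13.2 against 11.1 ± 5.38 CPM and Cd274, which encodes PD-L1, 150.1 ± 24.8 against 21.1 ± 5.28 CPM. Pdcd1lg2, which encodes PD-L2, was at 47.4 ± 4.11 against 0.230 ± 0.214 CPM. In pDC the higher members were Slamf9 (294 ± 27.4 against 18.8 ± 4.32 CPM), Cd200 (132 ± 11.4 against 20.3 ± 6.61), Slamf6 (69.2 ± 5.93 against 21.6 ± 2.67), Cd200r1 (log2FC -0.82) and Ly9 (log2FC -0.32). Immediate early genes, which cell handling can induce, moved with these molecules: 23 of 25 were higher in cDC2 (median log2FC 1.94), with none lower. Egr1 lay between 1254 and 2170.1 CPM (median 1796) in cDC2 and between 37.5 and 91.8 CPM (median 54.1) in pDC (log2FC 4.94, SE 0.13, adjusted p = 2.35e-11). The stress factor Atf3 lay between 569 and 1458 CPM (median 876) in cDC2 and between 12.0 and 28.2 CPM (median 23.2) in pDC (log2FC 5.43, SE 0.11, adjusted p = 1.08e-12). The phosphatase Dusp1 was at 4733 ± 567 against 251 ± 64.7 CPM, whereas Klf6 (log2FC 0.27) and Ier5 (log2FC 0.64) differed much less, and the call for Klf6 was lost with total counts alone (log2FC 0.10). Their part in the levels of maturation and cytokine genes was not tested.

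Chemokine and cytokine ligands were higher in cDC2 for 20 of 25 tested and higher in pDC for 3 (median log2FC 3.88). Ccl5, a chemokine that draws T cells, lay between 141 and 255 CPM (median 202) in cDC2 and between 0 and 0.661 CPM (median 0.101) in pDC (log2FC 10.09, SE 0.29, adjusted p = 1.13e-10). Ccl9 (152 ± 58.5 against 0.717 ± 0.487 CPM), Ccl6 (131 ± 31.2 against 9.30 ± 3.59), Cxcl16 (147 ± 37.9 against 0.826 ± 0.603) and Tnf (33.1 ± 14.05 against 4.00 ± 2.16) had the same direction. Of the ligands higher in pDC, Ccl4 lay between 1385 and 2808 CPM (median 1813) in pDC and between 279 and 736 CPM (median 445) in cDC2 (log2FC -2.18, SE 0.12, adjusted p = 3.07e-08). The others were the interleukin-12 subunit gene Il12a (4.46 ± 2.66 against 0.113 ± 0.319 CPM) and Tnfsf10, which encodes TRAIL (13.2 ± 6.22 against 6.61 ± 3.42 CPM). The call for Tnfsf10 (log2FC -1.06, adjusted p = 0.0244) was lost without pair 2, 4, 6 or 8, with a log2FC of -0.99 to -0.84 in those fits. In odd-numbered replicates alone its log2FC was -0.06. The other interleukin-12 subunit, Il12b, was at 8.07 ± 4.59 CPM in cDC2 and 0.00459 ± 0.0130 CPM in pDC, so the subunit genes had opposite directions.

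The chemokine receptor list, which also holds the lipid receptor S1pr4, had 7 of 16 tested (43.75%) higher in cDC2 and 6 (37.5%) in pDC. The shares of all genes tested were 31.2% and 29.7%. Cxcr3 lay between 147 and 260.3 CPM (median 209) in pDC and between 3.83 and 9.52 CPM (median 5.93) in cDC2 (log2FC -5.11, SE 0.13, adjusted p = 6.95e-12). The sphingosine phosphate receptor S1pr4 was at 39.1 ± 9.96 against 2.07 ± 0.623 CPM, and Ccr2 at 388 ± 157 against 134 ± 41.1 CPM. Higher in cDC2, beside Ccr7, were Cx3cr1 (62.7 ± 18.5 against 4.20 ± 2.87 CPM), Ccr6 (33.0 ± 6.57 against 6.46 ± 2.33), Cxcr4 (259.5 ± 41.2 against 152 ± 21.0) and the oxysterol receptor Gpr183 (507 ± 75.2 against 275 ± 105.5), which places cDC2 at the bridging channels of the spleen. Among 32 growth factor and cytokine receptors, 21 were higher in cDC2 and 8 in pDC. Il7r, the receptor of a lymphoid growth factor, lay between 145 and 240.2 CPM (median 199) in pDC and between 3.84 and 8.28 CPM (median 6.35) in cDC2 (log2FC -5.01, SE 0.18, adjusted p = 1.80e-10). The leukaemia inhibitory factor receptor Lifr (229.9 ± 25.5 against 9.07 ± 4.42 CPM) and the epidermal growth factor receptor Egfr (36.5 ± 9.45 against 0.0354 ± 0.0337 CPM) were higher in pDC. The partner of Lifr, Il6st, was higher in cDC2 (298 ± 61.6 against 53.5 ± 13.4 CPM), and so were the tumour necrosis factor receptors Tnfrsf1a (266 ± 55.6 against 70.6 ± 8.45) and Tnfrsf1b (413 ± 53.6 against 82.3 ± 17.4).

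Of 26 C-type lectins tested, 11 (42.3%) were higher in cDC2, 8 (30.8%) higher in pDC and 7 not past the test. The shares of all genes tested were 31.2% and 29.7%. The Clec4a cluster belonged to cDC2: beside Clec4a1 and Clec4a4, Clec4a2 was at 76.6 ± 6.68 against 0.237 ± 0.297 CPM and Clec4a3 at 159 ± 23.4 against 0.396 ± 0.473 CPM. The beta-glucan receptor Clec7a, known as Dectin-1, was at 356 ± 114 against 2.69 ± 2.85 CPM. The Cd209 family, neighbours in the genome, did not act as a unit. Cd209b lay between 15.5 and 26.3 CPM (median 23.5) in cDC2 with 1 read in all pDC libraries. Cd209d was at 466 ± 90.3 CPM in pDC against 2.05 ± 2.79 CPM in cDC2 and Cd209e at 24.3 ± 13.6 against 1.87 ± 1.06 CPM, while Cd209a did not pass the test. Clec10a (247 ± 36.7 against 22.1 ± 9.72 CPM) and the necrotic cell receptor Clec9a (89.9 ± 19.4 against 9.28 ± 2.82 CPM) were higher in pDC, as was Cd69 (385 ± 137 against 91.2 ± 26.6 CPM).

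Siglecs, SIRPs and paired receptors were higher in cDC2 for 19 of 28 tested and higher in pDC for 6 (median log2FC 1.64). Siglece, an inhibitory sialic acid receptor, lay between 51.1 and 74.3 CPM (median 58.2) in cDC2 and between 0 and 0.287 CPM (median 0) in pDC (log2FC 10.63, SE 0.44, adjusted p = 1.05e-09), the reverse of Siglech. Cd22 (133 ± 32.7 against 2.14 ± 2.06 CPM), Cd300a (547 ± 43.4 against 167 ± 13.96) and Cd300ld (55.7 ± 7.32 against 0.0700 ± 0.144) were also higher in cDC2. Cd300c (136 ± 14.6 against 1.47 ± 0.950 CPM) and Cd33 (39.8 ± 7.61 against 7.29 ± 4.43) were higher in pDC. The signalling adaptor Tyrobp, through which Siglech signals, was at 1529 ± 284 CPM in pDC and 597 ± 106 CPM in cDC2 (log2FC -1.34, SE 0.07, adjusted p = 2.48e-09). Its relative Fcer1g was at 459 ± 59.0 and 588 ± 69.6 CPM (log2FC 0.37, SE 0.06, adjusted p = 1.67e-04), slightly higher in cDC2. Of 12 Fc receptor genes tested, 9 were higher in cDC2, led by Fcgr4, which lay between 17.5 and 37.8 CPM (median 29.3) in cDC2 with 1 read in all pDC libraries. Fcrl1 (85.1 ± 10.9 against 0.273 ± 0.337 CPM) and the inhibitory Fcgr2b (71.2 ± 13.2 against 17.0 ± 3.94) followed. The exception was the intracellular Fcrla, which lay between 246 and 318 CPM (median 279) in pDC and between 0.321 and 2.67 CPM (median 1.28) in cDC2 (log2FC -7.70, SE 0.32, adjusted p = 1.31e-08). Of 14 integrins tested, 8 (57.1%) were higher in cDC2 and 4 (28.6%) in pDC, against 31.2% and 29.7% of all genes tested. Itgal, the LFA-1 alpha chain (493 ± 110.1 against 146 ± 20.1 CPM), and Itgb7, the chain for gut homing (699.7 ± 132 against 398 ± 40.0), were higher in pDC. Their partners Itgb2 (953 ± 114 against 493 ± 58.6) and Itga4 (413 ± 68.4 against 173 ± 41.3) were higher in cDC2.

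Of 26 Notch pathway genes tested, 6 (23.1%) were higher in cDC2, 10 (38.5%) in pDC and 10 not past the test. With 31.2% and 29.7% of all genes tested in these directions, the counts are not read as a trait of the pathway. Its receptors differed in direction. Notch2, on which splenic cDC2 depend, was at 195 ± 47.3 against 97.1 ± 23.0 CPM (log2FC 1.01, SE 0.11, adjusted p = 5.63e-06). Notch1 was at 130.3 ± 26.4 CPM in pDC against 2.18 ± 2.09 CPM in cDC2, and Notch3 lay between 28.2 and 66.9 CPM (median 40.5) in pDC and between 0 and 0.370 CPM (median 0.211) in cDC2 (log2FC -8.03, SE 0.46, adjusted p = 3.81e-08). Of the ligands, Jag1 was at 35.6 ± 12.9 CPM in cDC2 with 1 read in pDC, and Dll4 at 86.7 ± 23.5 CPM in pDC against 1.28 ± 1.27 CPM in cDC2. Notch3, which Notch signalling is itself known to induce, was thus higher in pDC. Other genes known to be induced by Notch, chosen after their values were seen, were Dtx1, higher in cDC2 at 415 ± 87.2 against 0.659 ± 0.816 CPM (log2FC 9.42, SE 0.58, adjusted p = 3.36e-07) and Hes1, higher in cDC2 at 98.6 ± 30.6 against 1.10 ± 0.893 CPM (log2FC 6.72, SE 0.45, adjusted p = 6.25e-07). Nrarp (2.78 ± 2.60 and 0.571 ± 0.737 CPM, log2FC 3.28, adjusted p = 0.0538) and Hes5 (0.368 ± 0.304 and 0.466 ± 0.548 CPM, log2FC 0.40, adjusted p = 0.818) did not pass. Nrarp passed, higher in cDC2, with DESeq2 (log2FC 3.95, adjusted p = 2.80e-04), with limma-voom (log2FC 2.80), without the block (log2FC 2.29), in replicates 1 to 4 (log2FC 6.45) and without pair 1, 6 or 8 (log2FC 3.96 to 4.07). The glycosyltransferase Lfng, which modifies Notch, was at 139.6 ± 21.7 against 2.65 ± 1.40 CPM, and the DNA-binding partner Rbpj at 192 ± 17.5 against 86.8 ± 17.8 CPM. The related Dtx2 had the opposite direction to Dtx1, at 132 ± 22.3 CPM in pDC and 43.2 ± 8.89 CPM in cDC2.

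The protein folding and secretion apparatus was higher in pDC, 31 of 40 genes against 5 higher in cDC2, with a median log2FC of -0.95. Xbp1, the factor that expands the endoplasmic reticulum, lay between 729 and 1057 CPM (median 882) in pDC and between 181 and 252 CPM (median 223) in cDC2 (log2FC -2.02, SE 0.07, adjusted p = 4.07e-11). Txndc5, a disulfide isomerase, lay between 546 and 742 CPM (median 622) in pDC and between 87.5 and 113 CPM (median 105.2) in cDC2 (log2FC -2.65, SE 0.09, adjusted p = 7.99e-11). The signal peptidase subunits Sec11c (322 ± 51.8 against 105.2 ± 15.6 CPM) and Spcs2 (563 ± 57.5 against 204 ± 18.5) and the chaperone Hsp90b1, which folds Toll-like receptors (874 ± 104 against 270.1 ± 22.9), had the same direction. Of the list, Sec24d, a cargo adaptor of COPII vesicles, had the largest fitted log2FC in either direction, at 298 ± 22.4 against 11.4 ± 5.55 CPM (log2FC -4.81, SE 0.22, adjusted p = 2.03e-08). The genes higher in cDC2 were Sdf2l1 (log2FC 0.84), Sel1l (log2FC 0.59), Edem1 (log2FC 0.32), Atf6 (log2FC 0.29) and Herpud1 (log2FC 0.23). With total counts alone 2 of the list were higher in cDC2, and the calls for Edem1 (log2FC 0.16), Atf6 (log2FC 0.13) and Herpud1 (log2FC 0.07) were lost. Those for Atf6 (adjusted p = 0.0630 with edgeR) and Herpud1 (adjusted p = 0.0709) were also lost without the block. Of 10 plasma cell markers tested, 4 (40%) were higher in pDC and 3 (30%) in cDC2, against 29.7% and 31.2% of all genes tested. Their summed level was 1068 to 1580.3 CPM in pDC and 729 to 1009.7 CPM in cDC2. Mzb1 was at 194 ± 57.0 CPM in pDC against 0.371 ± 0.377 CPM in cDC2, with 57.2% of its exonic bases overlapped by another gene, and Sdc1 at 50.3 ± 9.60 against 0.332 ± 0.482 CPM. Tnfrsf17, which defines plasma cells, was at 0.0243 ± 0.0391 CPM in pDC. Their part in the result was not tested.

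Of 29 lysosomal proteases and phagocytic receptors tested, 10 (34.5%) were higher in cDC2 and 16 (55.2%) in pDC. The shares of all genes tested were 31.2% and 29.7%, so the share higher in cDC2 lay near that of all genes. Ctsb, a cysteine protease, lay between 5188 and 6185 CPM (median 5657) in pDC and between 825 and 943 CPM (median 875) in cDC2 (log2FC -2.67, SE 0.05, adjusted p = 4.75e-13). Grn, which encodes the lysosomal protein progranulin, lay between 2438 and 4388 CPM (median 3582) in pDC and between 333 and 425 CPM (median 372) in cDC2 (log2FC -3.22, SE 0.09, adjusted p = 1.64e-11). Lyz1, a lysozyme gene, went the other way and lay between 118 and 296 CPM (median 199) in cDC2 and between 0 and 0.272 CPM (median 0.196) in pDC (log2FC 10.17, SE 0.21, adjusted p = 9.02e-13), as did Lyz2, a close paralog. Scarb2 was higher in pDC (246 ± 22.2 against 59.1 ± 8.54 CPM), and the phagocytic receptors Axl (44.8 ± 15.5 against 2.94 ± 2.23) and Lrp1 (39.2 ± 11.8 against 2.16 ± 3.69) in cDC2. The NADPH oxidase, which makes superoxide in phagosomes, also had subunits on both sides. Its catalytic subunit Cybb was at 1203 ± 175 CPM in pDC, 534 ± 64.5 CPM in cDC2 and 1.74 ± 1.04 CPM in cDC1, whereas Ncf4 (166 ± 13.0 against 55.6 ± 9.69 CPM) was higher in cDC2. Rac2 (1323 ± 171 against 487 ± 53.6 CPM) and the proton channel gene Hvcn1 (336 ± 49.96 against 80.6 ± 9.26) were higher in pDC, and 44.2% of Hvcn1 overlaps another gene.

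Proliferation genes were higher in cDC2 in 29 of 30 cases with none lower, and their median log2FC was 3.22. Mcm3, a subunit of the replicative helicase, lay between 121 and 178 CPM (median 148) in cDC2 and between 18.6 and 41.8 CPM (median 25.4) in pDC (log2FC 2.53, SE 0.13, adjusted p = 3.47e-09). Mcm6 was at 197 ± 19.7 against 58.1 ± 8.63 CPM and Mcm7 at 145 ± 17.1 against 29.9 ± 2.18 CPM. The mitotic genes Top2a (47.9 ± 8.62 against 4.33 ± 3.31 CPM) and Mki67 (9.06 ± 6.11 against 1.22 ± 1.05) were lower in level, with larger folds (log2FC 3.71 and log2FC 3.22). The single gene that did not pass was Cdk4 (143 ± 9.53 and 146 ± 13.8 CPM, log2FC -0.02, adjusted p = 0.801). Apoptosis regulators had 20 of 28 higher in cDC2 and 2 higher in pDC, namely the death promoter Bad (log2FC -1.06) and the survival gene Bcl2l2 (log2FC -1.52, adjusted p = 0.0347). Bcl2l2 was low and overlapped between groups, from 0.199 to 1.09 CPM in cDC2 and from 0.422 to 2.27 CPM in pDC. Its call was lost in 12 of 22 alternatives, among them those without pair 3, 6, 7 or 8 (log2FC -1.42 to -1.37). Pmaip1, which encodes the killer protein NOXA, lay between 1554 and 2224 CPM (median 1866) in cDC2 and between 175 and 405 CPM (median 295) in pDC (log2FC 2.71, SE 0.12, adjusted p = 2.66e-09). Its antagonist Mcl1 lay between 1042 and 1356 CPM (median 1175) in cDC2 and between 376 and 498 CPM (median 459.6) in pDC (log2FC 1.41, SE 0.05, adjusted p = 4.83e-11). The survival gene Bcl2a1b was at 405 ± 42.3 against 1.09 ± 0.780 CPM, and reads among the near-identical Bcl2a1 copies may be split (49.1% of its exonic bases overlap another gene).

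Actin and migration genes were higher in cDC2 for 27 of 34 and lower for 4 (median log2FC 1.03). Lcp1, an actin bundler, lay between 2349 and 3249 CPM (median 3061) in cDC2 and between 717 and 1033 CPM (median 824) in pDC (log2FC 1.82, SE 0.05, adjusted p = 1.11e-11). Fscn1, the bundler of dendrite-like protrusions, was at 215 ± 29.1 against 11.4 ± 3.33 CPM and the motor Myo1f at 428 ± 53.9 against 72.0 ± 12.3 CPM. The reverse held for the filament capper Capg (193 ± 30.7 against 2.54 ± 1.72 CPM), the scaffold Ahnak (178 ± 45.6 against 5.10 ± 3.39), Coro2a (log2FC -0.52) and S100a10 (log2FC -0.86). In metabolism 16 of 39 genes (41.0%) were higher in cDC2 and 11 (28.2%) in pDC, against 31.2% and 29.7% of all genes tested. The fatty acid carrier Fabp5 was at 129 ± 14.5 against 5.78 ± 2.52 CPM (log2FC 4.58, SE 0.20, adjusted p = 1.20e-09). The sterol synthesis genes Hmgcs1 (240.2 ± 39.3 against 72.1 ± 15.9 CPM) and Sqle (165 ± 18.2 against 30.7 ± 12.1 CPM) were higher in pDC. Their regulator Srebf2 did not pass (298 ± 51.4 and 304 ± 75.9 CPM, log2FC 0.0024, adjusted p = 0.985). Lactate dehydrogenase differed by isoform, Ldhb at 114 ± 20.1 CPM in pDC against 5.01 ± 1.13 CPM in cDC2. Ldha did not pass, at 664 ± 46.1 CPM in pDC and 712 ± 66.1 CPM in cDC2 (log2FC 0.11, adjusted p = 0.0827).

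**Figure D5:**
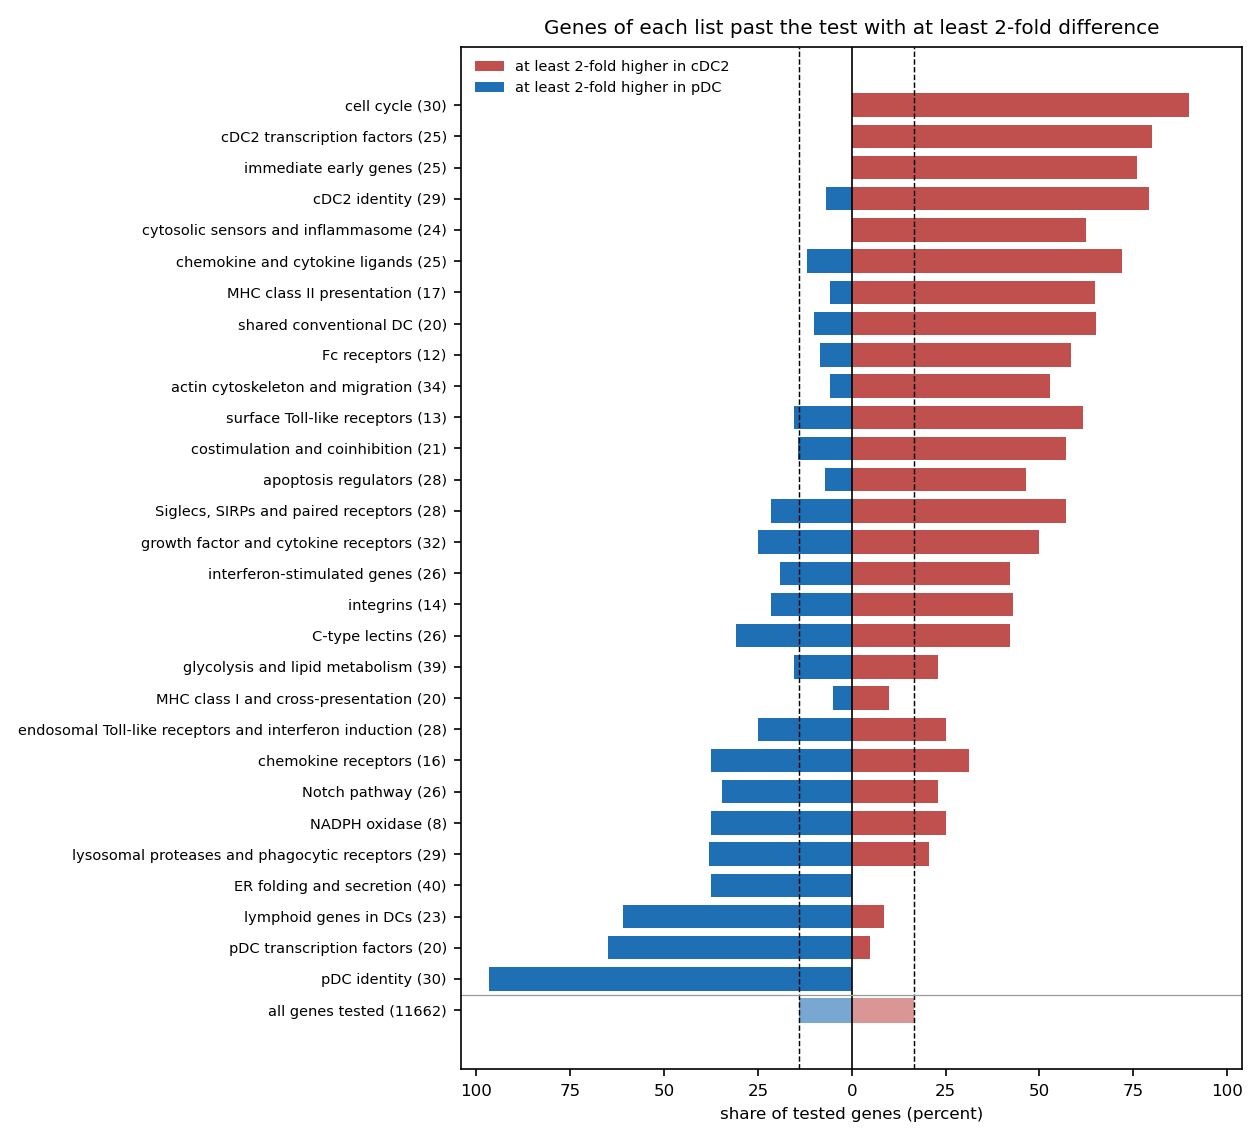
Share of tested genes (percent) past the adjusted p threshold and at least 2-fold higher in cDC2 (bars to the right) or in pDC (bars to the left), for each gene list with its number of tested genes, and for all 11662 genes tested in the bottom row. The dashed lines mark the shares over all genes, 16.6% and 14.1%, against 29 of 30 pDC identity genes to the left and 27 of 30 cell cycle genes to the right.

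Genes known from lymphocytes were mostly higher in pDC, 17 of 23 tested against 4 in cDC2 (median log2FC -3.41), while 5 more were too low to test. Beside Dntt and Il7r, Ly6a lay between 1422 and 1969 CPM (median 1686) in pDC and between 8.02 and 25.6 CPM (median 19.3) in cDC2 (log2FC -6.63, SE 0.19, adjusted p = 3.67e-10). Lag3, an inhibitory receptor for MHC class II, lay between 86.3 and 146 CPM (median 129) in pDC and between 4.65 and 7.47 CPM (median 6.51) in cDC2 (log2FC -4.34, SE 0.12, adjusted p = 1.38e-11). Cd28 was at 78.1 ± 20.2 against 0.263 ± 0.711 CPM, the adaptor Blnk at 268 ± 33.5 against 1.67 ± 1.02 CPM and Cd8a at 262 ± 35.5 against 2.64 ± 1.53 CPM. The recombinase genes were near 0 in these mature cells, Rag1 at 0.557 ± 0.665 and Rag2 at 0.0180 ± 0.0379 CPM in pDC. The cDC2 side held Tcf7 (51.7 ± 8.63 against 0.708 ± 0.347 CPM), Cd5 (20.6 ± 5.14 against 4.50 ± 2.64), Il2rg (log2FC 0.68) and Ccnd3 (log2FC 0.40). Of 10 B cell markers tested, 6 (60%) were higher in cDC2 and 3 (30%) in pDC, against 31.2% and 29.7% of all genes tested. Their summed level was 216 to 306 CPM in cDC2 and 80.3 to 138 CPM in pDC. Pax5, the factor that defines B cells, had no read in cDC2 and 2 in pDC. Their part in the lymphoid genes was not tested.

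Set beside cDC1, the differences between cDC2 and pDC took several forms. The genes given here were chosen after their values were seen, and the comparisons, from a fit of the 24 WT libraries with the replicate block, share libraries. Some genes set cDC2 apart from both other populations. Clec4a4 was higher in cDC2 than in cDC1 (log2FC 11.30, adjusted p = 4.82e-12), at 0.0943 ± 0.267 CPM there, and so were Dtx1 (log2FC 10.62, adjusted p = 6.45e-11) and Sirpb1a (log2FC 11.30, adjusted p = 2.20e-16). Some set pDC apart: Siglech was higher in pDC than in cDC1 (log2FC 12.14, adjusted p = 1.36e-13), as were Tcf4 (log2FC 5.80, adjusted p = 7.87e-18) and Dntt, with no read in cDC1. Others were shared by cDC2 and pDC and low in cDC1. Irf4 was higher than in cDC1 in cDC2 (log2FC 5.10, adjusted p = 7.93e-13) and in pDC (log2FC 4.48, adjusted p = 1.48e-12). Cybb was higher than in cDC1 in cDC2 (log2FC 8.30, adjusted p = 2.65e-16) and in pDC (log2FC 9.46, adjusted p = 2.24e-17), and Tlr7 likewise (log2FC 12.99, adjusted p = 1.01e-20 in cDC2 and log2FC 14.59, adjusted p = 7.70e-22 in pDC). Cd7, at 2.19 ± 0.814 CPM in cDC1, followed them (log2FC 7.56, adjusted p = 5.96e-17 in cDC2 and log2FC 7.94, adjusted p = 9.42e-18 in pDC). A last set was shared by pDC and cDC1 and low in cDC2. Irf8 was lower in cDC2 than in cDC1 (log2FC -5.80, adjusted p = 9.96e-19), while pDC exceeded cDC1 by far less (log2FC 0.62, adjusted p = 4.21e-06). Tlr12 was lower in cDC2 than in cDC1 (log2FC -5.53, adjusted p = 1.18e-10) and did not differ past the threshold between pDC and cDC1 (log2FC -0.04, adjusted p = 0.905). Fcrla, at 71.2 ± 11.5 CPM in cDC1, was lower in cDC2 (log2FC -5.69, adjusted p = 3.85e-13) and higher in pDC (log2FC 2.00, adjusted p = 1.39e-08).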

How the data were processed

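Splenic dendritic cells were released with Liberase and DNase at 37 °C for 30 minutes and sorted, and 4 ng of RNA per sample was amplified with SMART-Seq v4, per the labels' protocols, before sequencing 75-base single reads. The deposited values are raw read counts per gene, made by the authors. The submitters' processing notes name TopHat2 2.1.0, SAMtools 0.1.18, Trimmomatic 0.35 and FastQC 0.11.4, and the build mm10. The counting tool, annotation and strand setting are not given in the sources used here. Rows that name no gene were left out: reads on no feature made up 12.0% to 18.7% and ambiguous reads 1.04% to 1.57% of a library in these 16.

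Genes with enough reads (filterByExpr, minimum count 10, total 15) were fitted in edgeR 4.0.16 (R 4.3.3) by a robust quasi-likelihood model with TMM scaling, group and replicate number, and tested two-sided. The script was tested on simulated data. Alternatives used other scaling, filters, libraries, DESeq2 1.42.0 and limma 3.58.1. No library pair of a group agreed within sampling noise (chi-square per degree of freedom of at least 33.6). Coordinates are of GRCm38. Exonic length and overlap come from GENCODE M21, promoters from RefSeq.

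Named genes are the 12 furthest in each direction, past the threshold, without overlap and with at least 50 CPM. Predicted genes, antigen receptor segments and markers of other cells were left out of these. The 5 genes with the smallest p of each of 29 lists, and Irf8, were also named. Some genes are not reported here. Further genes were chosen after their values were seen. The members and lists were chosen with earlier results of these data known. Lists get counts and a median, with no test of their own.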

Additional observations from a re-analysis of the deposited data

Results flagged for a closer look

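In 69 of 568 groups of 8 libraries (12.1%), over the 290 genes named, 1 library stood apart from the other 7 by Dixon's criterion at the 95% level. For normally distributed values chance alone gives about 1 in 20 such groups, a rate that need not hold for these levels. Of the libraries that stood apart, 25 were under 1 CPM, where a few reads in 1 library suffice. The library concerned most often was pDC replicate 8, with 12 genes. In cDC2 replicate 1, Grm8 was at 0.0370 CPM (against 0 in the others) and Csf1r was at 316 CPM (against 451 to 556). Tapbpl was at 79.8 CPM (against 49.3 to 61.4) there. In cDC2 replicate 2, Cd209d was at 8.72 CPM (against 0 to 2.22) and Clec10a was at 43.1 CPM (against 13.1 to 26.6). In cDC2 replicate 3, Mefv was at 84.9 CPM (against 58.9 to 69.8) and Tsc22d1 was at 62.2 CPM (against 29.8 to 40.7). Irf4 was at 381 CPM (against 145 to 246) and Sec24d was at 23.3 CPM (against 5.86 to 13.96) there. In cDC2 replicate 4, Myd88 was at 248 CPM (against 138 to 173) and Bcl2l2 was at 1.09 CPM (against 0.199 to 0.597). In cDC2 replicate 5, Itgae was at 1.33 CPM (against 0 to 0.365) and Cd28 was at 2.02 CPM (against 0 to 0.0456). In cDC2 replicate 6, Bst2 was at 22.9 CPM (against 30.0 to 36.4) and Jag1 was at 65.9 CPM (against 26.0 to 39.0). Edem1 was at 357 CPM (against 288 to 316) there. In cDC2 replicate 7, Havcr1 was at 0.416 CPM (against 0 to 0.137) and Il12a was at 0.902 CPM (against 0 in the others). In cDC2 replicate 8, Dntt was at 0.0401 CPM (against 0 in the others) and Ptprf was at 0.0802 CPM (against 0 to 0.0370). Pycard was at 128 CPM (against 90.8 to 106) and Sec11c was at 139.9 CPM (against 87.2 to 109) there. Lcp1 was at 2349 CPM (against 2865 to 3249) there. In pDC replicate 1, Mmp9 was at 0.0527 CPM (against 0 in the others) and Csf3r was at 2.11 CPM (against 0.151 to 0.587). Il18 was at 3.53 CPM (against 0.883 to 2.06) and Tapbpl was at 153 CPM (against 96.0 to 122) there. In pDC replicate 2, Ffar2 was at 0.247 CPM (against 0 to 0.0527) and Tbx21 was at 0.318 CPM (against 0 to 0.147). Mzb1 was at 324 CPM (against 143 to 212) and Rag2 was at 0.106 CPM (against 0 to 0.0384) there. In pDC replicate 3, Sucnr1 was at 0.0367 CPM (against 0 in the others) and Sirpb1a was at 0.147 CPM (against 0 to 0.0479). Gpr183 was at 495 CPM (against 149.6 to 313) and Cd209b was at 0.0367 CPM (against 0 in the others) there. Dll4 was at 139.5 CPM (against 60.7 to 93.0) there. In pDC replicate 4, Tsc22d1 was at 1066 CPM (against 859 to 952) and Tcf12 was at 108 CPM (against 61.5 to 81.7). Cbfa2t3 was at 147 CPM (against 71.3 to 102) and Tlr9 was at 11.9 CPM (against 6.86 to 9.10) there. Tlr11 was at 2.02 CPM (against 0 in the others) and Tnfrsf17 was at 0.108 CPM (against 0 to 0.0479) there. Top2a was at 11.9 CPM (against 1.21 to 5.03) there. In pDC replicate 5, Clec4a4 was at 0.431 CPM (against 0 to 0.115) and Esam was at 15.5 CPM (against 1.40 to 8.07). Tlr3 was at 1.05 CPM (against 0 to 0.384) and Cd36 was at 132 CPM (against 20.9 to 47.5) there. Siglece was at 0.287 CPM (against 0 to 0.0360) and Lrp1 was at 11.2 CPM (against 0.0360 to 2.05) there. In pDC replicate 6, Il1rn was at 0.499 CPM (against 0 to 0.105) and Ets1 was at 311 CPM (against 229 to 266). Mycl was at 561 CPM (against 378 to 458) and Cd300ld was at 0.422 CPM (against 0 to 0.0527) there. Fcgr4 was at 0.0384 CPM (against 0 in the others) and Jag1 was at 0.0384 CPM (against 0 in the others) there. In pDC replicate 7, Clec4a1 was at 0.181 CPM (against 0 to 0.0768) and Pax5 was at 0.0604 CPM (against 0 in the others). In pDC replicate 8, Itgae was at 1.14 CPM (against 0 to 0.527) and Fn1 was at 0.0367 CPM (against 0 in the others). Ehf was at 0.0734 CPM (against 0 in the others) and S100a4 was at 12.4 CPM (against 2.96 to 5.88) there. Tlr13 was at 1.28 CPM (against 0 to 0.144) and Il1b was at 33.8 CPM (against 1.58 to 15.4) there. Ccl5 was at 0.661 CPM (against 0 to 0.269) and Il12b was at 0.0367 CPM (against 0 in the others) there. Cxcr4 was at 195 CPM (against 121 to 156) and Clec7a was at 9.10 CPM (against 0 to 3.88) there. Cd300a was at 197 CPM (against 149.8 to 171) and Tmsb4x was at 8017 CPM (against 4120 to 5952) there.

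Odd-numbered and even-numbered libraries, which split by Xist and Ddx3y, were compared for the cDC2 to pDC difference itself, a test added after seeing the data. An interaction term in edgeR's quasi-likelihood test called 1 of 11662 genes, and 357 had an unadjusted p below 0.05. The gene was Mzb1, whose log2FC was 5.12 higher in odd-numbered than in even-numbered pairs. Its level in cDC2 ran from 0.689 to 0.763 CPM in odd-numbered and from 0 to 0.0401 CPM in even-numbered libraries, all under 1 CPM. In pDC it ran from 143 to 212 and from 149 to 324 CPM.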

How the results depend on the processing

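The replicate block, without which 3534 genes were higher and 3364 lower in cDC2, changed the counts little. Deviations of same-numbered libraries from their group means correlated at 0.0303 to 0.118 over genes, and 6 of 8 numbers matched best to themselves in both directions. That is a hint of pairing from the data and not from the design, since the labels tie no number to an animal, litter or day, and whether the numbers pair the samples was not settled. The other settings that kept edgeR's test of no difference or replaced the tool (scaling, filters, samples in the fit, DESeq2, limma-voom, subsets of the replicates) gave counts within 1.5 times of those reported, for all genes and for list counts of at least 10. Leaving out 1 pair at a time gave 3438 to 3554 genes higher and 3250 to 3440 lower, or 1872 to 1942 and 1597 to 1658 with at least 2-fold difference. Tested against a 1.5-fold change in place of none, 2113 genes were higher and 1810 lower. The same test left 7 genes of endosomal sensing, 13 apoptosis regulators and 9 metabolic genes higher in cDC2 and 3 of MHC class I higher in pDC, since differences under that size no longer count. Of 6448 values for 281 genes over the alternatives, 91 lost and 19 gained the call, 60 changed sign, and 49 genes were involved. The changes of sign were for genes that did not pass the test as reported, and the cause was not tested.

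With total counts alone, Cd209a at -0.069, Mgl2 at -0.0092, Cebpa at -0.12, Irf3 at -0.15, Traf6 at -0.16, Srebf2 at -0.16 and Ldha at -0.059 changed sign. In replicates 1 to 4, Mgl2 at -0.20, Ikzf1 at 0.11, Cebpa at -0.080, Irf3 at -0.11, Traf6 at -0.0063, B2m at 0.039 and Srebf2 at -0.16 changed sign. In replicates 5 to 8, Csf2rb at 0.054 and Cdk4 at 0.0048 changed sign. With upper-quartile scaling, Cebpa at -0.024, Irf3 at -0.052, Traf6 at -0.061 and Srebf2 at -0.065 changed sign. With all 28 libraries and also no block, Irf3 at -0.0068, Traf6 at -0.0072, Hes5 at -0.35 and Srebf2 at -0.035 changed sign. In even-numbered replicates, Irf3 at -0.012, B2m at 0.0065, Hes5 at -2.14, Cdk4 at 0.032 and Srebf2 at -0.062 changed sign. With the 24 WT libraries, Traf6 at -0.0029 and Srebf2 at -0.0089 changed sign. With at least 1 CPM in 8 libraries, Traf6 at -0.0085 and Srebf2 at -0.013 changed sign. In odd-numbered replicates, Traf6 at -0.16 changed sign. With RLE size factors, B2m at 0.0031 changed sign. Without a filter, B2m at 0.00087 changed sign. With DESeq2, B2m at 0.0031 changed sign. Without the block, Hes5 at -0.34 and Srebf2 at -0.019 changed sign. With limma-voom, Srebf2 at -0.0098 changed sign. With each pair left out in turn, these values had either sign. B2m ran from -0.026 to 0.020, Cdk4 ran from -0.073 to 0.012 and Cebpa ran from -0.11 to 0.21. Hes5 ran from -0.22 to 1.10, Ikzf1 ran from -0.094 to 0.023 and Irf3 ran from -0.020 to 0.068. Srebf2 ran from -0.075 to 0.055 and Traf6 ran from -0.090 to 0.065. 

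In replicates 1 to 4, Xcr1 at 1.55, Xist at -0.59, Flt3 at 0.22, Adam19 at -0.27, Batf at -0.31, Tlr9 at -0.99, Cyba at 0.33, Tnfsf10 at -1.03, Herpud1 at 0.21 and Bcl2l2 at -1.13 lost the call. In odd-numbered replicates, Xcr1 at 1.26, Flt3 at 0.28, Adam19 at -0.16, Batf at -0.41, Tlr9 at -0.59, Cyba at 0.26, Ly9 at -0.31, Tnfsf10 at -0.056, Atf6 at 0.35, Herpud1 at 0.17 and Bcl2l2 at -1.43 lost the call. Without the block, Xist at -0.69, Adam19 at -0.22, Atf6 at 0.29 and Herpud1 at 0.25 lost the call. With all 28 libraries and also no block, Xist at -0.70, Adam19 at -0.24, Irf4 at 0.60, Slc15a4 at -0.35, Atf6 at 0.27 and Bcl2l2 at -1.52 lost the call. In replicates 5 to 8, Adam19 at -0.19, Myd88 at 0.27, Mavs at -0.60, Tmem173 at -0.19, Ly9 at -0.23, Klf6 at 0.16, Tnfsf10 at -1.10, Atf6 at 0.28 and Bcl2l2 at -1.92 lost the call. With the 24 WT libraries, Zeb2 at -0.96 and Bcl2l2 at -1.49 lost the call. In even-numbered replicates, Mavs at -0.25, Klf6 at 0.24, Atf6 at 0.21 and Bcl2l2 at -1.63 lost the call. With total counts alone, Cyba at 0.17, Klf6 at 0.10, Edem1 at 0.16, Atf6 at 0.13 and Herpud1 at 0.066 lost the call. Without a filter, Bcl2l2 at -1.51 lost the call. With limma-voom, Ddx3y at 0.30 and Nrarp at 2.80 gained the call. In even-numbered replicates, Ddx3y at 0.29 gained the call. With upper-quartile scaling, Csf2rb at -0.20 gained the call. With total counts alone, Csf2rb at -0.30, Ikzf1 at -0.20, Klf2 at -0.33, B2m at -0.17 and Cdk4 at -0.19 gained the call. In replicates 1 to 4, Csf2rb at -0.34 and Nrarp at 6.45 gained the call. Without the block, Nrarp at 2.29 gained the call. With DESeq2, Nrarp at 3.95 and Ldha at 0.11 gained the call. 

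Depth limits the lowest values: over 8 libraries the floor of 3 counts was 0.0154 CPM in cDC2 and 0.0143 CPM in pDC. This floor covers the sampling of reads only. Reads were not counted by molecule, so it takes no account of amplification.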

Other observations

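Gene families were also grouped by the letters that begin their symbols, which needs no list, in 56 groups of at least 20 tested genes. Over all genes tested 31.2% were higher in cDC2 and 29.7% higher in pDC, and each count is to be read against these shares. Of the cytosolic ribosomal protein genes, 26 of 46 Rpl genes were higher and 3 lower, with a median log2FC of 0.29 and none as much as 2-fold higher, and Rps genes had 17 higher and 6 lower of 43. Of the mitochondrial ribosomal genes, 17 of 48 Mrpl genes (35.4%) were higher in pDC and 5 in cDC2 (median log2FC -0.12), and 9 of 29 Mrps genes (31.0%) were higher in pDC and 2 in cDC2. Their shares higher in pDC lay near that of all genes, and those higher in cDC2 below it. With total counts alone, which move the median of all genes by -0.17, 17 Rpl genes were higher and 10 lower (median log2FC 0.12). Rps genes were then even, 11 higher and 10 lower (median log2FC 0.01), and Mrpl genes had 2 higher and 28 lower. The direction of the ribosomal families thus rests on the scaling in part. Nuclear pore (Nup) genes had 12 of 20 higher in cDC2 and 1 lower, and kinesin (Kif) motors 13 of 27 higher, 12 of them by at least 2-fold, and 2 lower, beside the higher cell cycle genes. Of 303 zinc finger (Zfp) genes, 86 (28.4%) were higher in pDC, near the share of all genes, and 41 (13.5%) higher in cDC2, below it (median log2FC -0.32). More were higher in pDC than in cDC2 for the Sec genes of protein transport (14 of 24 against 4) and the Atp genes of pumps and ATP synthase (31 of 58 against 10). The families were chosen after their values were seen.

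Per kilobase of exon the most abundant nuclear transcripts overlapped between the populations. After Cd74, cDC2 held Tmsb4x (10033 CPM per kilobase) and H2-Ab1 (8389), and pDC held B2m (5818), Tmsb4x (3842), Ly6d (3835) and Ccl4 (3063). Il1b ranked 11 in cDC2 at 1927 CPM per kilobase, and stood at 5.63 in pDC. Ly6d, rank 4 in pDC, stood at 3.48 in cDC2.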
